A study of Homo sapiens with 8 samples.

Results

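Expression of the cytochrome P450 genes was followed across HepaRG cells, the engineered line M14A made from them, and M14A after bioprinting. Members were the protein-coding genes whose symbol is CYP, a family number, subfamily letters and a member number, which gave 55 of the 58735 genes in the table, on 15 chromosomes. HepaRG is a human hepatic progenitor line that can be differentiated into hepatocyte-like and biliary-like cells, and no differentiation step is named in the labels. The HepaRG plate group (3 libraries) was wild type and was grown in culture flasks. M14A is HepaRG labelled as transfected with FoxM1 and HNF4A, and the M14A plate group (3 libraries) was also grown in flasks. The M14A printed group (2 libraries) came from flasks too, was printed in the bioink GP, and was frozen 4 h later for grinding and RNA extraction. Flask cells were instead spun down after detachment, and an effect of printing cannot be told apart from one of collection. The sources used here do not say whether M14A is a single clone.

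P450 enzymes hold a haem bound through a cysteine and use molecular oxygen and electrons to hydroxylate or epoxidize their substrates. Those in the endoplasmic reticulum receive electrons from the reductase POR, and the mitochondrial ones receive them from ferredoxin and its reductase FDXR. In liver, families 1 to 3 clear most drugs, family 4 oxidizes fatty acids and eicosanoids, and others make bile acids or handle cholesterol, steroid hormones, vitamin D and retinoic acid. The nuclear receptor HNF4A drives hepatocyte identity and is a known regulator of many liver P450 genes.

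Levels are FPKM (fragments counted per gene length and a library size set by the authors). Whole reads recovered from these values numbered 15632154 to 19148262 per library. The library size in the FPKM was 1.20, 1.20 and 1.18 times these reads in HepaRG plate and 0.968, 1.15 and 1.19 times in M14A plate. In printed cells it was 0.818 and 0.853 times, so the same share of recovered reads gives a higher FPKM there. The reason was not tested. HNF4A stood at 5.67, 6.24 and 6.50 FPKM in HepaRG plate, 37.9, 43.1 and 41.7 in M14A plate, and 17.1 and 13.6 in printed cells. FOXM1 stood at 12.9 to 14.9, 8.92 to 13.0, and 10.1 and 10.1 FPKM in the same groups, so the annotated gene was not raised in the libraries labelled as transfected with it. The FOXM1 and HNF4A rows may not measure the introduced copies, since a transgene read is counted there only if it matches an annotated exon, and this was not tested. M14A plate library 1 stood apart from the other libraries of its group, with Pearson correlations across genes of 0.957 and 0.948, against 0.988 between libraries 2 and 3. Mitochondrially encoded genes took 6.91 to 7.25% of HepaRG reads, 8.21 to 9.72% of M14A plate reads, and 13.3 and 16.4% of printed reads, and their part in the results was not tested. The labels do not say whether replicates are separate cultures; p-values therefore cover the spread among these libraries, which may be technical.

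Most P450 genes were low, with 35 of 55 short of 1 FPKM in at least 2 of the 8 libraries, and 2 genes carried much of the family's signal. The summed level of the 55 genes was 113, 117 and 114 FPKM in HepaRG plate, 108, 119 and 117 in M14A plate, and 140 and 134 in printed cells. As a share of each library's FPKM total the order was different. That share was 0.0438, 0.0459 and 0.0427% in HepaRG plate, 0.0308, 0.0426 and 0.0430% in M14A plate, and 0.0272 and 0.0268% in printed cells. CYP27A1, the mitochondrial sterol hydroxylase of bile acid synthesis, and CYP4F11, a fatty acid hydroxylase, together gave 41.3 to 53.8% of the summed level. In every HepaRG library CYP4F11 was the higher of the pair, and in every M14A library, plate or printed, CYP27A1 was. Reaching 1 FPKM in at least 2 libraries was the filter for testing, and 20 members passed it. By role, the genes that passed were 3 of 20 xenobiotic enzymes, 9 of 14 fatty acid and eicosanoid enzymes, 3 of 7 sterol and bile acid enzymes, 1 of 6 steroid hormone enzymes, 3 of 7 vitamin D and retinoid enzymes, and CYP20A1, which has no settled role.

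**Figure D1:**
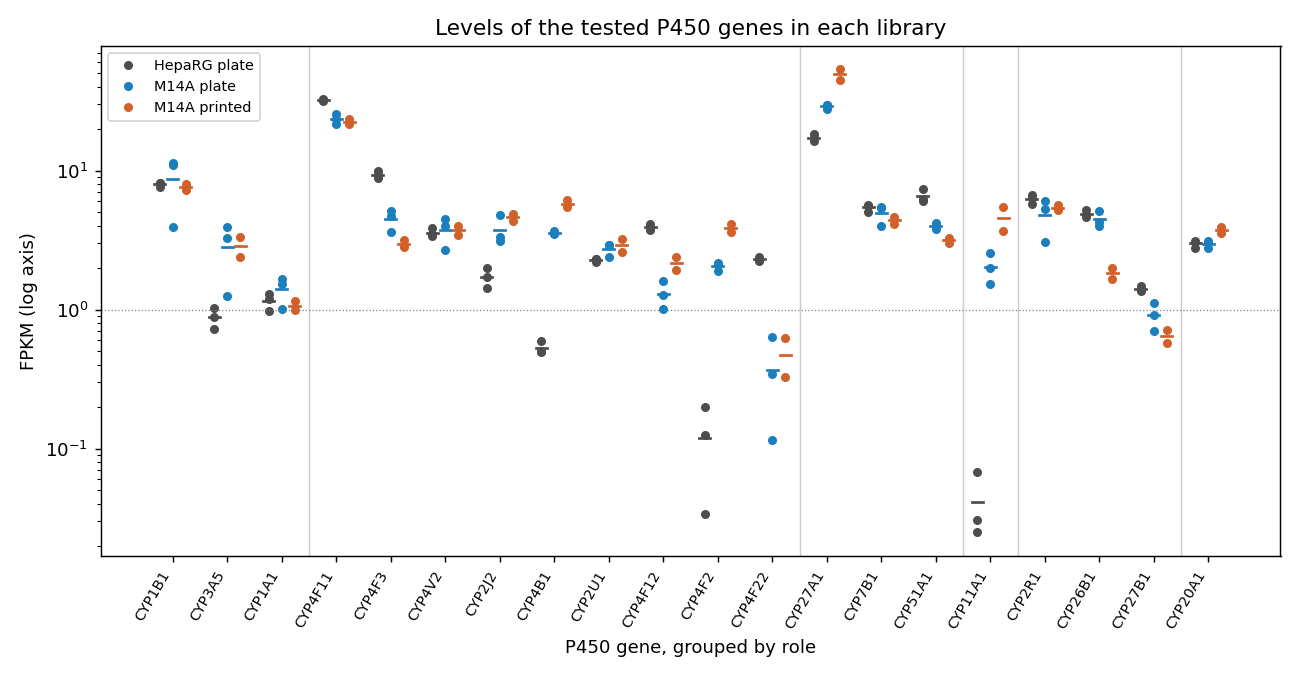
FPKM (log axis) of the 20 tested P450 genes in each of the 8 libraries, one point per library with a bar at the group mean, genes grouped by role between the vertical lines; the dotted line marks 1 FPKM. CYP4F11 and CYP27A1 lie above the rest, and CYP11A1 and CYP4F2 have their HepaRG points below 0.2 FPKM.

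In M14A plate against HepaRG plate, 6 members were higher (CYP11A1, CYP27A1, CYP2J2, CYP3A5, CYP4B1 and CYP4F2) and 5 lower (CYP4F3, CYP4F11, CYP4F12, CYP4F22 and CYP51A1) by limma at an adjusted p below 0.05. That is 11 of 20 (55%), where 30.9% of all 14349 genes tested were called, 16.1% higher and 14.7% lower. CYP11A1, CYP4B1 and CYP4F2 were below 1 FPKM in every HepaRG library, and CYP4F22 in every M14A library. CYP3A5 stood at 0.888, 1.03 and 0.728 FPKM in HepaRG plate, short of the 2 libraries that the filter needs. These genes passed the filter only through the line in which they were high, and the part of the filter in the 55% was not tested. The median log2 fold change of the members was 0.00 against -0.04 over all genes, and their median absolute value was 0.52 against 0.33. The groups did not overlap for 13 members, and 53.0% of all genes had groups that did not overlap. In printed against plate M14A cells, 5 members were higher (CYP11A1, CYP27A1, CYP4B1, CYP4F2 and CYP4F12) and 2 lower (CYP26B1 and CYP4F3). This share of 7 of 20 (35%) was near the 33.2% of all genes (17.7% higher, 15.5% lower), and 9 members did not overlap, against 51.3% of all genes. Log2 fold changes are of FPKM + 1, a scale that shrinks differences of low genes, and each adjusted p is from limma with Benjamini-Hochberg adjustment over all genes tested. Both comparisons share the M14A plate libraries. Printed libraries have FPKM totals above those of the plate libraries, and scaling all libraries to an equal total shifted the all-gene median of the printed comparison from 0.01 to -0.51. Scaling by the median ratio over genes found in every library instead gave a median of 0.03 and kept all 5 higher calls. Under it the lower call of CYP4F3 was lost (-0.43). Of the 5 members called higher in printed cells none was called at equal totals, where CYP27A1, CYP4B1 and CYP4F12 took the opposite sign (-0.0099, -0.061 and -0.017). Under that scaling 8 members were called lower in printed cells (CYP1A1, CYP26B1, CYP27B1, CYP2U1, CYP4F3, CYP4F11, CYP51A1 and CYP7B1). Over all genes, equal totals gave 495 called higher and 6620 lower.

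**Figure D2:**
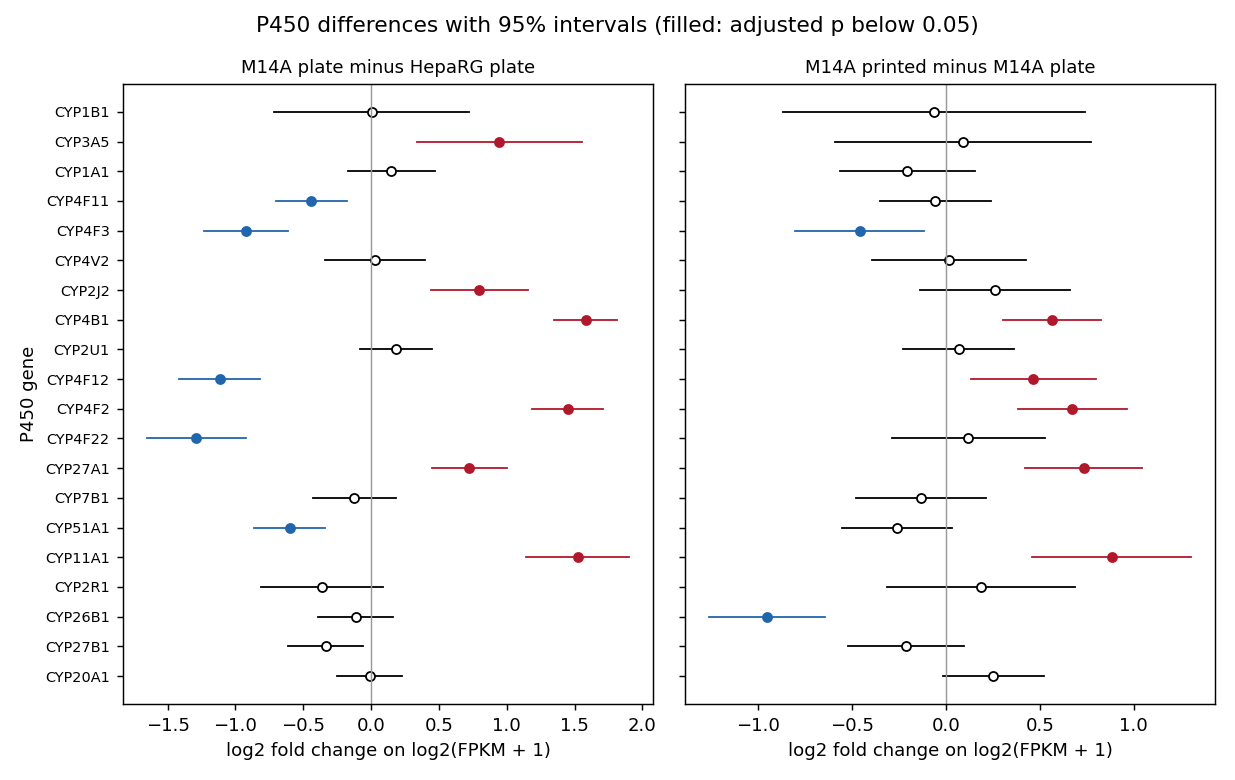
Log2 fold change of FPKM + 1 with its 95% interval for the 20 tested P450 genes, M14A plate minus HepaRG plate on the left and M14A printed minus M14A plate on the right; filled points have an adjusted p below 0.05, in red where higher and blue where lower. On the left 5 genes lie at 1 or more in size and on the right none does; at equal FPKM totals the points of CYP27A1, CYP4B1 and CYP4F12 on the right move to -0.0099, -0.061 and -0.017.

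Of the xenobiotic enzymes, only CYP3A5, CYP1A1 and CYP1B1 passed the filter. CYP3A5 oxidizes drugs and steroids and is close in specificity to CYP3A4. It stood at 0.888, 1.03 and 0.728 FPKM in HepaRG plate, 1.26, 3.91 and 3.26 in M14A plate, and 2.41 and 3.35 in printed cells. Its M14A plate libraries all lay above the HepaRG libraries, with library 1 closest to them (log2 fold change 0.95, SE 0.27, adjusted p = 0.028). The call was lost without HepaRG plate library 1, 2 or 3 (0.95, 1.00 and 0.89) and without M14A plate library 2 or 3 (0.72 and 0.83), and also with no filter and at equal FPKM totals with or without mitochondrial genes (adjusted p = 0.079, 0.072 and 0.067). In printed against plate cells the log2 fold change of CYP3A5 was 0.09 (95% interval -0.59 to 0.77), and -0.46 at equal totals.

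CYP1B1 and CYP1A1 oxidize polycyclic aromatics and estrogens and are classical targets of the aryl hydrocarbon receptor AHR. CYP1B1 was the third highest member in both M14A groups. Its values were 8.15, 8.20 and 7.62 FPKM in HepaRG plate, 3.93, 11.0 and 11.3 in M14A plate, and 7.31 and 7.97 in printed cells. M14A plate library 1 held the lowest value of all and libraries 2 and 3 the highest, so the M14A plate group spanned both of the others. The difference between the flask-grown lines was 0.00 (SE 0.32, adjusted p = 0.99), and without M14A plate library 1 it was 0.44 (adjusted p = 0.0027). For printed against plate cells the value went from -0.06 (adjusted p = 0.91) to -0.50 (adjusted p = 0.0019) when that library was left out. CYP1A1 stood at 1.19, 0.975 and 1.29, at 1.00, 1.54 and 1.67, and at 1.15 and 0.987 FPKM in the 3 groups. These ranges overlapped, and neither difference of CYP1A1 passed the test (0.15, 95% interval -0.17 to 0.47, and -0.21, -0.56 to 0.15). Without M14A plate library 1 the printed difference of CYP1A1 passed at -0.33 (adjusted p = 0.039), and at equal FPKM totals at -0.59 (adjusted p = 0.040). AHR itself showed the same low value in M14A plate library 1, with 4.04, 4.05 and 4.10 FPKM in HepaRG plate, 1.72, 3.76 and 4.00 in M14A plate, and 2.92 and 2.55 in printed cells. Neither difference of AHR passed (-0.34, adjusted p = 0.27, and -0.11, adjusted p = 0.77), but without that library the printed one did (-0.39, adjusted p = 0.0062).

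Fatty acid and eicosanoid enzymes made up 7 of the 11 members called between the flask-grown lines, 3 of them higher and 4 lower, and 5 of these 7 lie in the CYP4F cluster. That cluster spans 426 kb of chromosome 19 (GRCh38) in the order CYP4F22, CYP4F8, CYP4F3, CYP4F12, then 4 olfactory receptor genes, CYP4F2 and CYP4F11. The enzymes hydroxylate the terminal carbon of fatty acids, leukotrienes, arachidonic acid and vitamins with fatty side chains. CYP4F2 (chromosome 19, 15878023 to 15898120, minus strand) and CYP4F11 (15912367 to 15934867, minus strand) are separated by 14.2 kb with 0 protein-coding genes between them. The upstream stretches of 3 members that differed in direction are printed here, from RefSeq on GRCh38.p14, for comparison with their levels. CYP4F2 was higher in M14A plate, and CYP4F11 and CYP4F22 were lower. Each stretch reads 5′ to 3′ on the gene's strand and holds the bases before the start that lie in no annotated exon. Those of CYP4F2, chr19:15898121-15898324 (minus strand), CYP4F11, chr19:15934868-15935117 (minus strand), and CYP4F22, chr19:15508275-15508492 (plus strand), are as follows, with capitals for an antioxidant response element match in CYP4F11 and an AHR core match in CYP4F22.
CYP4F2: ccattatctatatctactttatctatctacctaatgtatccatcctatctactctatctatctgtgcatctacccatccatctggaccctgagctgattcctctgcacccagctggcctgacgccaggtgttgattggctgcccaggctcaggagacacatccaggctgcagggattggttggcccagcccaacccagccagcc
CYP4F11: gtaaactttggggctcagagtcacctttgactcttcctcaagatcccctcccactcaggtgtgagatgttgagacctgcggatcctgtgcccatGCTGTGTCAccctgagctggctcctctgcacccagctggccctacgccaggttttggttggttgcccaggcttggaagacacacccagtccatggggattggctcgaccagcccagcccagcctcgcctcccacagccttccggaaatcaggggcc
CYP4F22: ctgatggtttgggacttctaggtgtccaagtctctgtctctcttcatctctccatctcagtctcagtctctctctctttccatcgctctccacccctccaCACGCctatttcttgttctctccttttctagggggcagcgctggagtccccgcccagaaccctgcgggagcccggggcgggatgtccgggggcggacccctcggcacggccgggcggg
A local alignment of the CYP4F2 and CYP4F11 stretches paired 175 bases, of which 144 (82.3%) were identical, with 27 gap bases. For CYP4F2 and CYP4F22 it paired 135 bases, of which 109 (80.7%) were identical, with 50 gap bases. For CYP4F11 and CYP4F22 it paired 49 bases, of which 37 (75.5%) were identical, with 9 gap bases. The alignment scores were 81.5, 23.5 and 13 in that order. A local alignment keeps only the segments that match, and these identities leave out gaps, so they do not rank the pairs. How unrelated stretches would score was not tested.

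CYP4F2, which hydroxylates arachidonic acid, leukotriene B4 and vitamin K, was almost without reads in HepaRG. HepaRG plate gave 2, 9 and 13 reads (0.0338, 0.125 and 0.198 FPKM). In M14A plate it stood at 1.89, 2.15 and 2.10 FPKM and in printed cells at 3.61 and 4.12. The 3 groups did not overlap, and each step passed the test (1.45, SE 0.11, adjusted p = 3.0e-05, and 0.67, SE 0.13, adjusted p = 0.0052). Of the 50-base windows of CYP4F2, 12.2% occur in other genes, mainly its relatives, so its low values in particular are uncertain. At equal FPKM totals the printed difference of CYP4F2 did not pass (0.10), nor without mitochondrial genes in those totals (0.24). It also did not pass with a pseudocount of 0.1 or 0.01 in place of 1 (0.88 and 0.91).

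CYP4F11, the gene next to it, was the most abundant P450 in HepaRG and lower in M14A. Its values were 31.5, 32.0 and 32.8 FPKM in HepaRG plate, 25.4, 23.3 and 21.7 in M14A plate, and 21.6 and 23.4 in printed cells. Every M14A library lay below every HepaRG library (-0.44, SE 0.12, adjusted p = 0.021 for the flask-grown lines). The call was lost without HepaRG plate library 1, 2 or 3 (-0.45, -0.44 and -0.42) or M14A plate library 2 or 3 (-0.44 and -0.39), with the direction kept. Printed and plate M14A values of CYP4F11 overlapped (-0.06, 95% interval -0.35 to 0.24), and at equal FPKM totals the difference was called lower (-0.78, adjusted p = 4.5e-04).

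CYP4F3 inactivates leukotriene B4 and in liver also oxidizes long-chain fatty acids. It fell along both steps: HepaRG plate held 9.30, 9.86 and 8.86 FPKM, M14A plate 3.61, 4.72 and 5.15, and printed cells 3.14 and 2.81. The groups did not overlap, and the differences were -0.92 (SE 0.13, adjusted p = 0.0011) and -0.46 (SE 0.15, adjusted p = 0.046). The second call was lost without M14A plate library 2 or 3 (-0.42 and -0.37) or printed library 1 or 2 (-0.52 and -0.40). It was also lost with median-ratio scaling (-0.43), with no filter and with only the 2 groups compared (-0.46 in both). CYP4F12, which oxidizes arachidonic acid and some antihistamines, stood at 3.94, 4.16 and 3.73 FPKM in HepaRG plate, 1.01, 1.60 and 1.27 in M14A plate, and 1.93 and 2.39 in printed cells. It was lower in M14A plate (-1.12, SE 0.13, adjusted p = 3.0e-04) and in printed cells lay between the other groups. Its printed difference was 0.47 (SE 0.15, adjusted p = 0.039), a call lost without M14A plate library 3 (0.46) or printed library 1 or 2 (0.57 and 0.36), and its sign turned at equal FPKM totals (-0.017). That call was also lost with no filter and with only the 2 groups compared (0.47 in both). CYP4F22, which makes the very long omega-hydroxy fatty acids of skin ceramides, stood at 2.23, 2.40 and 2.28 FPKM in HepaRG plate. In M14A plate it stood at 0.639, 0.116 and 0.346 FPKM and in printed cells at 0.622 and 0.327. All M14A libraries were below all HepaRG libraries (-1.29, SE 0.16, adjusted p = 4.2e-04), and the M14A groups overlapped (0.12, 95% interval -0.29 to 0.53).

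The summed level of the cluster was lower in every M14A library than in every HepaRG library, and CYP4F2 made up a larger share of it. Its 6 genes gave 47.0, 48.6 and 47.9 FPKM in HepaRG plate, 32.5, 31.9 and 30.5 in M14A plate, and 30.9 and 33.1 in printed cells. The share of CYP4F2 in it was between 0.0719 and 0.413% in HepaRG plate, between 5.82 and 6.89% in M14A plate, and 11.7 and 12.5% in printed cells, while CYP4F11 gave 65.9 to 78.0% in every library. Only CYP4F8, a prostaglandin hydroxylase of seminal vesicle, fell below the filter, with 2 reads over all libraries.

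**Figure D3:**
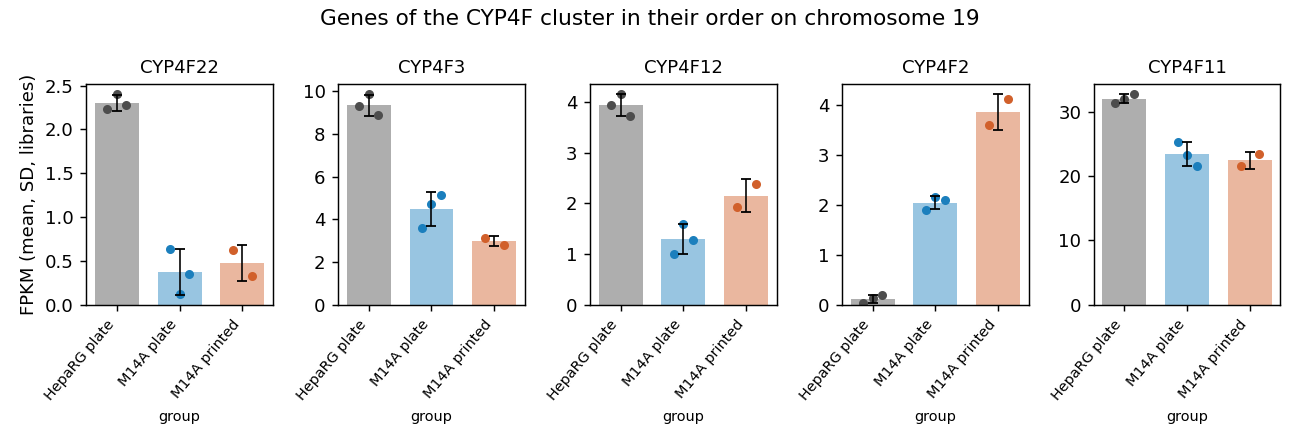
FPKM of the 5 tested CYP4F genes by group, in their order on chromosome 19; bars are group means, error bars SD and points libraries (3, 3 and 2), and each panel has its own axis from 0. CYP4F2 is the 1 panel in which HepaRG plate is lowest; in the others HepaRG plate is highest.

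Outside the cluster, CYP4B1 and CYP2J2 were higher in M14A. CYP4B1 oxidizes shorter fatty acids and activates certain protoxins, and is known mainly from lung. It stood at 0.506, 0.590 and 0.496 FPKM in HepaRG plate, 3.67, 3.58 and 3.50 in M14A plate, and 6.12 and 5.44 in printed cells. Between the flask-grown lines its mean was 6.75 times higher with a tight spread in both groups (1.58, SE 0.10, adjusted p = 1.0e-05). The printed difference of CYP4B1 was 0.56 (SE 0.11, adjusted p = 0.0069), which was lost without printed library 1 (0.49) and turned in sign at equal FPKM totals (-0.061). That call was also lost with only the 2 groups compared (0.56). CYP2J2, which epoxidizes arachidonic acid, stood at 1.42, 2.01 and 1.72 FPKM in HepaRG plate, 4.79, 3.34 and 3.13 in M14A plate, and 4.37 and 4.91 in printed cells. All M14A values lay above the HepaRG values (0.80, SE 0.16, adjusted p = 0.0054). The printed difference of CYP2J2 did not pass (0.26, adjusted p = 0.28), without M14A plate library 1 it passed at 0.41 (adjusted p = 0.022), and at equal FPKM totals it took the other sign (-0.34, adjusted p = 0.080).

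The long-chain fatty acid hydroxylases CYP2U1 and CYP4V2 were called in neither comparison. CYP2U1 stood at 2.20, 2.31 and 2.32, at 2.39, 2.91 and 2.89, and at 2.61 and 3.23 FPKM in the 3 groups (0.18, 95% interval -0.08 to 0.45, and 0.07, -0.23 to 0.36). At equal FPKM totals its printed difference took the other sign and was called (-0.48). CYP4V2, an enzyme linked to an inherited retinal dystrophy, stood at 3.37, 3.47 and 3.87, at 2.68, 4.02 and 4.48, and at 3.42 and 4.02 FPKM. Its intervals were -0.34 to 0.40 and -0.39 to 0.43, and its lowest value was in M14A plate library 1.

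Among sterol and bile acid enzymes, CYP27A1 rose along both steps (the second not at equal FPKM totals, where its sign turned) and CYP51A1 fell between the flask-grown lines. CYP27A1 (chromosome 2, 218781749 to 218815293) stood at 17.2, 16.2 and 18.3 FPKM in HepaRG plate, 29.7, 29.7 and 28.0 in M14A plate, and 53.7 and 44.9 in printed cells. The groups were well separated, and each step was 1.69 times in the means (0.72, SE 0.12, adjusted p = 0.0024, and 0.73, SE 0.14, adjusted p = 0.0049). At equal FPKM totals the second step of CYP27A1 was -0.0099. CYP51A1, the lanosterol demethylase of cholesterol synthesis, stood at 6.03, 7.42 and 6.20 FPKM in HepaRG plate, 4.17, 3.90 and 3.83 in M14A plate, and 3.27 and 3.03 in printed cells. Its 3 groups did not overlap, with differences of -0.60 (SE 0.11, adjusted p = 0.0046) and -0.26 (SE 0.13, adjusted p = 0.15), the second called at equal FPKM totals (-0.82, adjusted p = 0.0015). Of its exon bases 83.2% lie in other annotated genes, so its reads may be counted in part and its level is uncertain. CYP7B1, the oxysterol hydroxylase of the alternative bile acid pathway, stood at 5.70, 5.60 and 5.002, at 3.98, 5.45 and 5.39, and at 4.62 and 4.16 FPKM. Neither difference of CYP7B1 passed (-0.12, 95% interval -0.43 to 0.18, and -0.13, -0.48 to 0.21), and the printed one did without M14A plate library 1 (-0.25, adjusted p = 0.044) and at equal FPKM totals (-0.74, adjusted p = 0.021). CYP7A1, the rate-limiting enzyme of the classical bile acid pathway, had 7 reads over all libraries, and CYP8B1, which sets the share of cholic acid, had 2.

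CYP11A1, the mitochondrial enzyme that cleaves the cholesterol side chain as the first step of steroid synthesis, was the member with the largest ratio between the lines. HepaRG plate gave 2, 2 and 5 reads (0.0304, 0.0249 and 0.0684 FPKM), M14A plate 2.55, 1.53 and 1.99 FPKM, and printed cells 5.50 and 3.69 FPKM. The M14A plate mean was 49.0 times the HepaRG mean, which rests on those few reads (1.52, SE 0.17, adjusted p = 2.1e-04). Printed cells were higher again (0.88, SE 0.19, adjusted p = 0.0082), a call lost without printed library 1 (0.65) and at equal FPKM totals (0.31). The same call was lost with a pseudocount of 0.01 (1.18) and with only the 2 groups compared (0.88). Of the exon bases of CYP11A1, 28.96% lie in other annotated genes. In bulk samples, a higher share of cells with a transcript and more of it per cell cannot be told apart. The other steroid enzymes were low, with 0 reads of the adrenal enzymes CYP11B1 and CYP11B2 in all libraries and 13 reads in all of CYP17A1. Of the exon bases of CYP17A1, 41.1% lie in another annotated gene.

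Of the vitamin D and retinoid enzymes 1 was called, CYP26B1, in printed cells. CYP26B1 degrades retinoic acid. It stood at 4.67, 5.25 and 4.82 FPKM in HepaRG plate, 5.15, 4.01 and 4.30 in M14A plate, and 1.98 and 1.67 in printed cells. Both printed values lay below every plate value of either line, while the flask-grown lines overlapped (-0.11, 95% interval -0.39 to 0.16, and called at equal FPKM totals at -0.29, adjusted p = 0.0495). The printed difference of CYP26B1 was -0.95 (SE 0.14, adjusted p = 0.0017), and it was called with that direction in all 18 alternatives run. CYP2R1, the main vitamin D hydroxylase of liver, stood at 6.30, 6.69 and 5.73, at 3.05, 5.32 and 5.997, and at 5.23 and 5.61 FPKM. Its lowest value was again in M14A plate library 1, and neither difference passed (-0.36, adjusted p = 0.20, and 0.19, adjusted p = 0.55, or -0.12 and -0.05 without that library). CYP27B1, which makes the active hormone, stood at 1.47, 1.35 and 1.37, at 1.11, 0.700 and 0.916, and at 0.717 and 0.574 FPKM. The flask-grown lines did not overlap but the difference did not pass (-0.33, SE 0.12, adjusted p = 0.067), and it did without M14A plate library 1 (-0.41, adjusted p = 0.0155), at equal FPKM totals with and without mitochondrial genes (-0.49 and -0.43), over protein-coding genes alone (-0.33) and with voom on recovered reads (-0.65). The printed difference of CYP27B1 was -0.21 (adjusted p = 0.26), and at equal FPKM totals it was called (-0.49, adjusted p = 0.010). CYP20A1, an orphan P450, was close between the lines, at 3.09, 3.11 and 2.79 against 2.76, 3.04 and 3.10 FPKM, with an interval of -0.25 to 0.23. In printed cells CYP20A1 stood at 3.54 and 3.93 FPKM, above every plate library, but the difference did not pass (0.25, adjusted p = 0.13).

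The 35 members below the filter include most of the drug-metabolizing P450s of mature liver. Together they gave between 3.50 and 3.92 FPKM in HepaRG plate, between 2.70 and 3.27 in M14A plate, and 3.13 and 3.24 in printed cells. CYP3A4, the main drug-metabolizing P450 of adult liver, had 10, 9 and 6 reads in HepaRG plate, 7, 10 and 18 in M14A plate, and 7 and 24 in printed cells. CYP2D6 had 30, 52 and 48, then 21, 16 and 17, then 13 and 17 reads, and 34.4% of its 50-base windows occur in other genes. CYP1A2 had 3 reads over all libraries, CYP2B6 2, CYP2C8 4, CYP2E1 16 and CYP3A7, the fetal liver form, 10. Over all 8 libraries 4 genes had 0 reads (CYP11B1, CYP11B2, CYP2A13 and CYP2C19), where 3 reads, the limit that a count of 0 allows, equal 0.0310 to 0.129 FPKM by gene and library. A further 20 had 1 to 20 reads and 11 had more, among them CYP2S1 with the highest single value of the group, 1.31 FPKM in M14A plate library 1. These limits cover counting error only, and reads that match several genes may go uncounted. Of the 50-base windows of CYP2C19, CYP2A13 and CYP3A7, 38.2, 23.1 and 39.8% occur in other genes, so their low counts are uncertain. Differences among such counts were not detectable at this depth for most of the genes below the filter. With no filter, CYP19A1, the aromatase, was called lower in M14A plate (0.694 to 0.243 FPKM, log2 fold change -0.45, adjusted p = 0.017). In the same fit CYP4X1 was called higher in printed than in plate cells (0.119 to 0.389 FPKM, 0.31, adjusted p = 0.043). Other members below the filter are CYP24A1, CYP26A1, CYP26C1, CYP27C1, CYP21A2, CYP39A1, CYP46A1, CYP4A11, CYP4A22, CYP4Z1, CYP2A6, CYP2A7, CYP2C18, CYP2F1, CYP2W1 and CYP3A43.

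**Figure D4:**
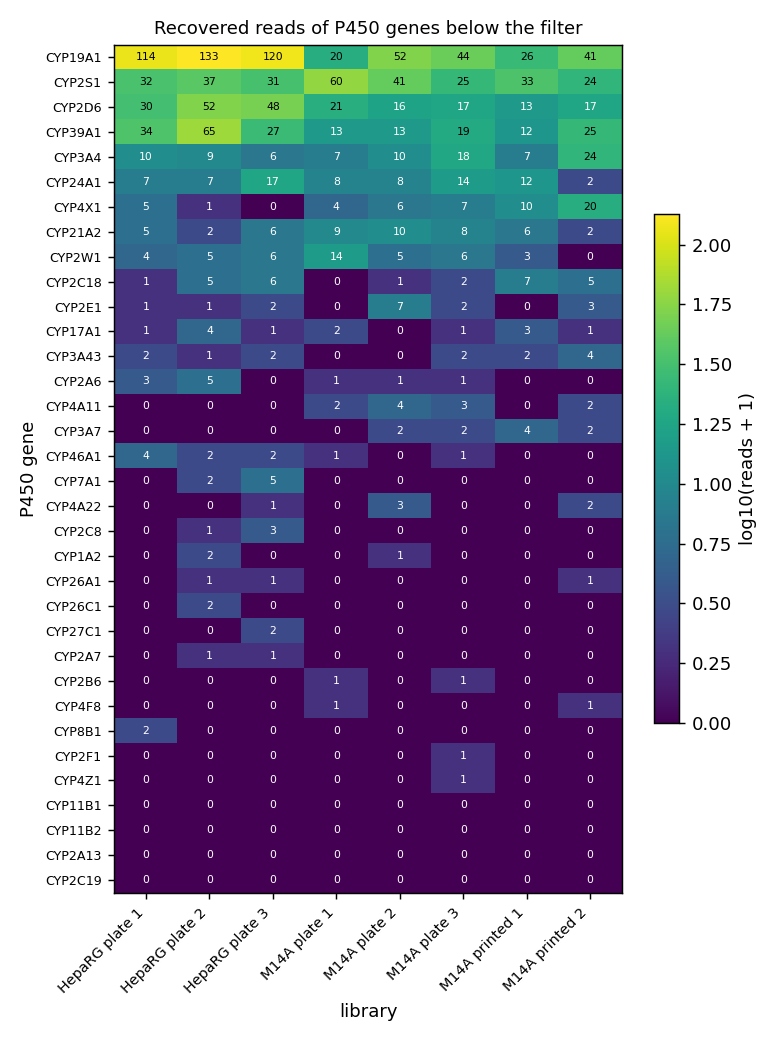
Recovered reads of P450 genes below the filter (rows) in each of the 8 libraries (columns), with the count written in each cell and the colour showing log10(reads + 1). CYP19A1 heads the plot with 114, 133 and 120 reads in HepaRG plate and 20 to 52 in the M14A libraries, and the lowest 4 rows are at 0 throughout.

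Promoter windows of 250 bases before to 50 after the start (RefSeq, GRCh38.p14) were given for 16 of the 20 tested members, in 20 windows. An HNF4-type motif (CAAAGTCCA), searched like all others on both strands, was found in 1 member, CYP2R1, and in 0.384% of all 35116 windows. The DR1 direct repeat, a longer motif bound by HNF4, was found in 0 members and 0.0228% of windows. The AHR core (GCGTG) was found in 8 members, CYP1A1 and CYP4F22 among them, and in 36.5% of windows. The antioxidant response element (TGACNNNGC) was found in 3 members (CYP4F11, CYP4F22 and CYP4V2) and in 13.35% of windows, and the match of CYP4F22 lies past its printed stretch. A sterol element (TCACCCCAC) was in 0 members and 0.430% of windows, and a TATA box (TATAAA) was in 3 members (CYP1A1, CYP26B1 and CYP4B1) and 11.5% of windows. A match says only that these letters are present in the window.

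P450 partners and regulators held called genes in both directions, in shares to be read against the 30.9% and 33.2% of all genes called. Of 8 tested electron donors and partners, between the flask-grown lines 3 were higher and 1 lower in M14A, and 2 were higher in printed cells. FDXR, the reductase that supplies CYP27A1, CYP11A1 and CYP27B1 in mitochondria, stood at 6.83, 6.08 and 7.13 FPKM in HepaRG plate, 91.7, 49.7 and 44.3 in M14A plate, and 113 and 79.5 in printed cells. All M14A libraries lay far above HepaRG (2.96, SE 0.27, adjusted p = 6.5e-05). The printed difference of FDXR did not pass (0.68, adjusted p = 0.11), and without M14A plate library 1 it did (1.00, adjusted p = 0.0022). POR, the donor to the P450s of the endoplasmic reticulum, stood at 24.4, 24.9 and 25.7, at 31.4, 19.4 and 17.6, and at 25.9 and 20.4 FPKM. The M14A plate libraries of POR lay on both sides of HepaRG (-0.17, adjusted p = 0.57), and without M14A plate library 1 they were lower (-0.41, adjusted p = 0.020). In printed cells the POR difference was 0.06 (adjusted p = 0.88), and at equal FPKM totals it was -0.67. The haem-binding partner PGRMC1 stood at 84.2, 79.6 and 80.2, at 32.6, 49.6 and 53.8, and at 95.3 and 102 FPKM, lower in M14A plate (-0.86, adjusted p = 0.0083) and higher in printed cells (1.13, adjusted p = 0.0045).

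Of 12 genes of haem synthesis and breakdown, 2 were higher and 2 lower in M14A plate, and 4 were higher in printed cells. HMOX1, which breaks haem down, stood at 41.9, 37.7 and 44.8, at 11.7, 7.28 and 6.95, and at 18.7 and 15.4 FPKM. It was lower in M14A plate (-2.17, SE 0.19, adjusted p = 6.4e-05) and higher in printed than in plate cells (0.93, SE 0.22, adjusted p = 0.012), the latter lost without printed library 1 (0.80). BLVRB, which reduces biliverdin, was higher in printed cells (1.07, adjusted p = 0.0055), lost without printed library 1 (0.93). Of 8 tested xenobiotic receptors and partners, 1 was higher in M14A plate, and 1 was higher and 3 were lower in printed cells. NR1I2, the pregnane X receptor that induces CYP3A and CYP2C genes, stood at 0.414, 0.307 and 0.328 FPKM in HepaRG plate and 2.87, 2.79 and 2.30 in M14A plate (1.43, SE 0.11, adjusted p = 2.9e-05). In printed cells NR1I2 stood at 2.28 and 2.29 FPKM (-0.15, adjusted p = 0.39). NR1I3, the related receptor CAR, was below the filter at 0.101 to 0.307 FPKM. At equal FPKM totals the printed differences of PGRMC1, HMOX1 and BLVRB did not pass (0.38, 0.23 and 0.31).

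Of 17 tested further regulators, 5 were higher and 8 lower in M14A plate, and 1 was higher and 5 lower in printed cells. HNF4A showed the largest change of these in both comparisons (2.55, SE 0.13, adjusted p = 2.7e-06, and -1.36, SE 0.15, adjusted p = 7.2e-04). In printed cells HNF4A was lower than in M14A plate and above every HepaRG library. CYP26B1 and CYP4F3 were called lower in the same comparison, and CYP27A1, CYP4F2, CYP4F12, CYP4B1 and CYP11A1 higher. The higher calls were all lost at equal FPKM totals, with the sign turned for CYP27A1, CYP4B1 and CYP4F12. A link between HNF4A and these genes was not tested. TBXAS1, thromboxane synthase, is a P450 enzyme under another symbol and stood at 1.58, 1.75 and 1.69, at 1.32, 1.40 and 1.43, and at 2.45 and 1.93 FPKM. Its printed difference was called (0.41, adjusted p = 0.032), was lost without M14A plate library 2 or 3 (0.42 and 0.43) or printed library 1 (0.30), and turned in sign at equal FPKM totals (-0.071).

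**Figure D5:**
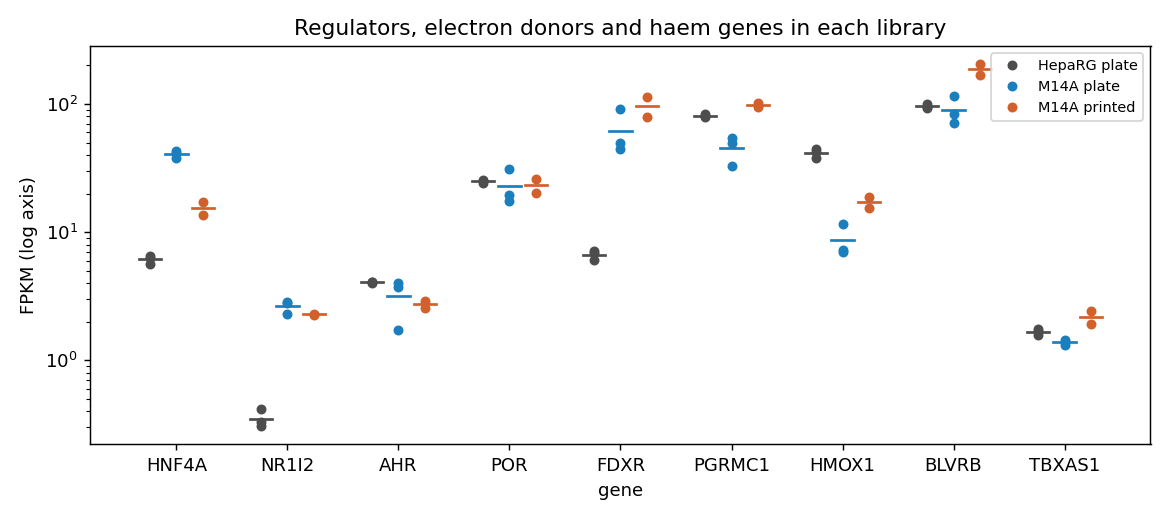
FPKM (log axis) of regulators, electron donors, haem genes and TBXAS1 in each of the 8 libraries, one point per library with a bar at the group mean. HNF4A, NR1I2 and FDXR have all M14A points above all HepaRG points, and HMOX1 has all of them below.

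Summed levels of cell type marker lists differed between the groups, and within some lists called genes went both ways. These sums are not scaled to FPKM totals, which were 514152 and 499995 in printed cells and 272290 to 350931 in M14A plate. A higher sum in printed cells is therefore not shown to be a higher share. Called counts are to be read against 16.1% of all genes higher and 14.7% lower in M14A plate. A list of 13 hepatocyte markers gave between 27.4 and 29.7 FPKM in HepaRG plate, between 499 and 609 in M14A plate, and 771 and 790 in printed cells. SERPINA1 (262 to 459 FPKM) and FGB (90.3 to 141 FPKM) made up most of the M14A plate sum. Of 7 tested genes 5 were higher and 1, the urea cycle enzyme CPS1, lower in M14A plate (-0.80, adjusted p = 0.0020). The defining markers TTR, TF, TAT, ASGR1 and G6PC were each below 0.4 FPKM in every library, with G6PC at 0 in all but 1. A list of 8 cholangiocyte and progenitor markers gave 117 to 121, 26.8 to 62.2, and 47.9 and 51.0 FPKM, with the highest M14A plate value in library 1. Of its 5 tested genes 3 were lower in M14A plate, and KRT7 was higher there (1.05, adjusted p = 4.3e-04) and again in printed cells (1.14, adjusted p = 0.0012). The 7 stellate cell and fibroblast markers summed to 19.8 to 21.4, 40.6 to 68.8, and 84.3 and 92.7 FPKM. Of 5 tested genes of that list DCN and ACTA2 were higher and COL1A1 and PDGFRB lower in M14A plate. The 5 leukocyte markers summed to 2.49 to 3.16, 7.23 to 11.3, and 12.4 and 13.8 FPKM. That sum came from CD14, LAPTM5 and MARCO, each called higher in M14A plate. The markers PTPRC and CD68 reached at most 0.0208 and 0.0696 FPKM in any library. The 6 endothelial markers stayed at 0.970 to 2.67 FPKM, with CDH5 at 0 in all libraries. The part of these lists in the P450 differences was not tested.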

How the data were processed

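RNA sequencing libraries (1 µg RNA each, NEBNext Ultra kit, per the labels' protocols) were processed by the authors with HISAT2 2.0.5 and featureCounts 1.5.0-p3, per the submitters' processing notes; their options, the strand setting and the build are unstated in the labels. Levels were deposited by the authors as FPKM. The coordinates of all 58735 genes are those of GENCODE 29 (GRCh38), so that build is given.

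FPKM times gene length gave whole multiples of 1 read (tolerance 0.01) for 99.92 to 99.98% of non-zero values, which gave the reads per library. Replicate libraries differed beyond sampling noise (chi-square per degree of freedom 3.01 to 86.8 over recovered reads). A count of 0 allows 3 reads. The 14349 genes reaching 1 FPKM in 2 or more libraries were tested as log2(FPKM + 1), a pseudocount of 1, with limma 3.58.1 in R 4.3.3 (eBayes with trend, two-sided). All 8 libraries shared 1 fit (3 group means, leaving 5 residual degrees of freedom), since 2 printed libraries say little of their own spread. A call needed an adjusted p (Benjamini-Hochberg, all tested genes) below 0.05. On simulated data the procedure called 78.8% of 2-fold and 97% of 4-fold changes between the flask-grown lines. In the printed comparison it called 68% and 94%. The simulated spread beyond counting was the same for every gene, with no outlying library, so it was simpler than in these data.

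Named genes are every tested member, POR, FDXR, NR1I2, NR1I3, AHR, HNF4A and FOXM1, and from each partner list the called gene with the largest change per comparison, or that with the highest mean. Members below the filter that are given with values beyond counts, and CYP4F pseudogenes, were chosen after their values were seen. Some genes that this rule selects are left out of the text and figures. Members and lists were chosen with earlier results of these data known. Alternatives were other pseudocounts, filters, scalings, fits, gene sets and thresholds, voom on recovered reads, a replicate block, and each library left out. The voom fit kept the authors' library sizes, so it does not test that scaling. Per-sample columns without a sample numbered 0.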

Additional observations from a re-analysis of the deposited data

How the results depend on the processing

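P450 counts for M14A plate minus HepaRG plate (6 higher, 5 lower) moved by over 1.5 times under a filter of 5 FPKM alone, which leaves 9 members tested (2 higher, 3 lower); leaving out each library gave 5 to 7 and 4 to 6. For M14A printed minus M14A plate (5 higher, 2 lower) the higher count was 3 with a pseudocount of 0.01, 2 with the 5 FPKM filter, 0 at equal FPKM totals, 1 at equal totals without mitochondrial genes, 2 with only the 2 groups compared in the fit, and 2 to 6 with each library left out. The lower count was 1 with no filter, 1 with median-ratio scaling, 8 at equal totals, 6 at equal totals without mitochondrial genes, 1 with only the 2 groups compared, 1 with a replicate block, 1 at an adjusted p below 0.01, and 1 to 5 with each library left out (5 without M14A plate library 1). Without a printed library the remaining one is assumed to vary like the other groups. Equal totals moved the median of all genes from -0.04 to -0.20 between the flask-grown lines and to -0.51 in the printed comparison (-0.14 and -0.39 without mitochondrial genes). In the printed comparison at equal totals CYP27A1 (-0.0099), CYP2U1 (-0.48), CYP4B1 (-0.061), CYP4F12 (-0.017), CYP4F32P (-0.12), TBXAS1 (-0.071) and POR (-0.67, and -0.50 without mitochondrial genes) took the opposite sign. So did members called under neither scaling: CYP20A1 (-0.32), CYP2J2 (-0.34), CYP2R1 (-0.45), CYP3A5 (-0.46), CYP4F22 (-0.075) and CYP4V2 (-0.57); between the flask-grown lines CYP1B1 (-0.17) and CYP4V2 (-0.13) did.

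Over all genes, the higher count between the flask-grown lines (2317) was 1393 at 5 FPKM and 1460 at an adjusted p below 0.01, and 1567 to 2912 with each library left out. The lower count (2112) was 948 at 5 FPKM, 3362 at equal totals, 1084 at p below 0.01, and 1252 to 3220 with each library left out. In printed cells the higher count (2544) was 495 at equal totals, 826 without mitochondrial genes, 1062 with only the 2 groups, 1265 at p below 0.01, and 1202 to 4045 with each library left out. The lower count (2226) was 1260 at 5 FPKM, 6620 at equal totals, 5363 without mitochondrial genes, 954 with only the 2 groups, 1103 at p below 0.01, and 1228 to 3866 with each library left out. Causes were not tested.

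Replicate numbers are not said to pair samples. Deviations of same-numbered libraries correlated at -0.07, 0.08 and -0.16 between HepaRG plate and M14A plate and at 0.49 and 0.36 between M14A plate and printed cells. M14A plate library 3 and printed library 2, which differ in number, correlated at 0.43. Deviations of the 2 printed libraries from their mean mirror each other, so the values with printed cells cannot show whether libraries pair. With the replicate block the P450 counts were 6 higher and 4 lower, and 4 higher and 1 lower, and CYP4F11 (-0.44, adjusted p = 0.050 by limma) and, in printed cells, CYP4F3 (-0.43), CYP4F12 (0.45) and TBXAS1 (0.42) were not called.

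Between the flask-grown lines CYP11A1, CYP27A1, CYP2J2, CYP4B1, CYP4F2, CYP4F3, CYP4F12, CYP4F22 and CYP51A1 were called with 1 direction in every alternative in which they were tested. Depth limits the members below the filter, most of which had at most 20 reads.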

Other observations

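Rows with a P450-like symbol outside the protein-coding rule numbered 53, of which 24 had 0 reads in every library. The 5 that passed the filter are all named as CYP4F pseudogenes, and they lie on chromosomes 2, 9 and 13, away from the coding cluster. CYP4F60P stood at 11.7, 10.8 and 9.83 FPKM in HepaRG plate, 1.48, 2.05 and 3.05 in M14A plate, and 1.36 and 2.58 in printed cells, lower in the M14A flask libraries by limma (log2 fold change -1.91, SE 0.21, adjusted p = 2.3e-04). CYP4F32P stood at 7.27, 8.29 and 10.5, at 4.97, 5.08 and 5.24, and at 9.04 and 6.85 FPKM. It was lower in M14A plate (-0.66, adjusted p = 0.013, lost without HepaRG plate library 3 at -0.52). Its printed difference was 0.54 (adjusted p = 0.042), lost without M14A plate library 2 or 3 (0.54 and 0.56) or printed library 1 (0.37), and -0.12 at equal FPKM totals. CYP4F25P and CYP4F26P were also lower in M14A plate (-1.05, adjusted p = 0.0099, and -0.86, adjusted p = 8.7e-04). CYP4F34P went the other way, with 0 reads in all 3 HepaRG libraries and 1.17, 1.28 and 2.85 FPKM in M14A plate and 2.17 and 1.41 in printed cells. These rows share sequence with one another or with coding relatives to an extent not measured here, so reads may be assigned among them with error.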
